A study of Mus musculus with 9 samples.

Results

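The genes described here are 32 of the 23366 gene symbols in the deposited expression table. They encode the enzymes of glycolysis, the transporters of glucose and lactate, and genes of the response to low oxygen, and the rule names them by symbol. All 32 symbols were found. By role they comprise 4 transporters, 9 enzymes of upper glycolysis, 6 of lower glycolysis with lactate dehydrogenase, 3 regulatory kinases, 3 genes of HIF-1 and the hydroxylases that control it, and 7 other HIF-1 targets.

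RNA was sequenced from CD8+ T cells isolated from tumours of B16F10, a transplantable mouse melanoma line, in 9 bulk libraries of C57BL/6 mice. The 5 WT libraries came from wild-type mice. The 4 IL27ra KO libraries came from mice without a working IL27ra gene, whose product is the receptor chain that binds interleukin 27. All mice of both groups carried B16F10 tumours, and no drug or other agent is named. The labels give about 2000 lysed cells and 5 µL of lysate per library. They do not give the age of the mice, the part of the gene that was disrupted, or whether the libraries of a group are from separate animals. The p-values therefore speak only of the variation among the 9 libraries, some of which may be technical.

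Glycolysis splits glucose into pyruvate and yields ATP without oxygen. Activated T cells rely on it for growth and for cytokine production, and most of the pyruvate is then turned into lactate and exported. HIF-1 is a transcription factor whose alpha subunit, made from Hif1a, is hydroxylated and degraded when oxygen is present. When oxygen is scarce the protein accumulates and raises transcription of glycolytic genes, of glucose transporters and of genes such as Bnip3, Vegfa and Egln3. This control acts mainly on the protein, so the level of Hif1a RNA need not follow HIF-1 activity.

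The values are TMM-normalized FPKM, fragments scaled to transcript length and to library depth, then adjusted between libraries. The spacing of low values implied 1730000 to 4090000 fragments per library. Because the values hold the adjustment between libraries, this is an effective depth and not a count of sequenced fragments. Il27ra, the targeted gene, had 25.7, 5.14, 15.2, 14.4 and 15.8 FPKM in WT replicates 1 to 5 and 4.09, 6.50, 5.62 and 7.80 FPKM in IL27ra KO replicates 1 to 4. The library labelled WT replicate 2 thus lay inside the IL27ra KO range, and a change given below has its value without it where that turned or moved by over 1.5 times. Genes of CD8 T cell identity had a summed level of 1133 to 1767 FPKM in WT, against of 528 to 1395 FPKM in IL27ra KO. All 21 tested genes of macrophages and monocytes rose in IL27ra KO, and the 22 genes of that list summed to 88.6 to 486 FPKM in WT, against 709.9 to 1961 FPKM in IL27ra KO. Among IL27ra KO libraries, replicate 4 was lowest for the macrophage list and highest for the CD8 list. The 16 melanoma genes summed to 476 to 1539 FPKM in WT, against 753 to 1627 FPKM in IL27ra KO. Of 9 neutrophil markers, Mpo, Elane, Ngp, Camp and Retnlg were at 0 in every library, as was the B cell marker Ms4a1. In bulk samples, fewer cells of a type and less RNA per cell cannot be told apart.

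The comparison of genotypes asks which genes of tumour CD8+ T cells depend on the receptor for interleukin 27, here for sugar metabolism and the response to low oxygen. None of the 32 genes passed the threshold in either direction (limma, adjusted p under 0.05 over all 10374 tested genes). The targeted gene Il27ra missed it too (change -1.10, SE 0.34, limma, adjusted p = 0.0996). A miss therefore does not show that a gene is unchanged. Over all tested genes 4.24% passed, 3.13% as higher and 1.11% as lower in IL27ra KO. At an unadjusted p under 0.05 there were 3 of the 32, Slc2a3, Ldhb and Pfkfb4, against 15.1% of all genes. The groups overlapped for all 32, whereas 6.73% of all tested genes had no overlap, 4.26% with IL27ra KO higher and 2.47% with it lower. The changes were spread evenly around 0, with 16 above and 16 below and a median of 0.00 on the log2 scale, beside 0.02 over all genes. For 26 of the 32 the 95% interval of the change lay within 1 log2 unit of 0, as it did for 77.5% of all tested genes. With the deposited scaling, this left no room for a 2-fold difference of FPKM + 1. For genes near 1 FPKM, such as Vegfa and Egln3, the added 1 shrinks a 2-fold change of FPKM, which these intervals do not exclude. Without the library labelled WT replicate 2, 7 of the 32 changes turned sign, those of Hk1, Gpi1, Aldoa, Pgk1, Ldha, Ero1l and Ankrd37.

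**Figure D1:**
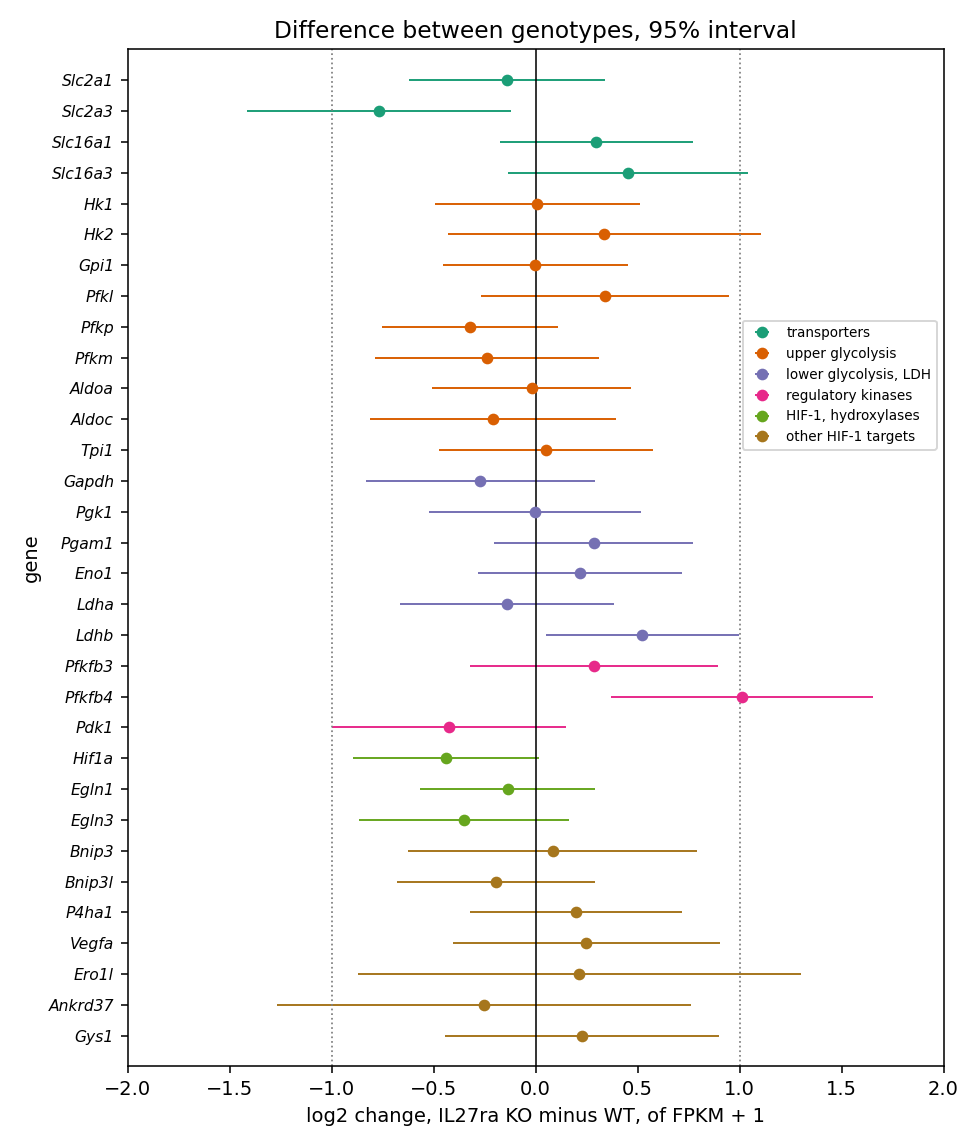
Change of each gene between genotypes, as IL27ra KO minus WT on the log2(FPKM + 1) scale, with 95% intervals from limma, coloured by role. Points are fitted changes over 5 WT and 4 IL27ra KO libraries, and the dotted lines mark 1 log2 unit. The intervals of Slc2a3, Ldhb and Pfkfb4 exclude 0, and none of the 32 passed after adjustment over all genes.

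Among the transporters, Slc2a1, which encodes the glucose carrier GLUT1, had 19.2, 12.5, 11.3, 9.45 and 10.85 FPKM in WT replicates 1 to 5 and 8.46, 10.35, 12.5 and 13.65 FPKM in IL27ra KO replicates 1 to 4. The ranges overlapped, with WT replicate 1 above and IL27ra KO replicate 1 below the rest, and the change was -0.14 (SE 0.22, 95% interval -0.62 to 0.34). Slc2a3, which encodes GLUT3, a carrier with a higher affinity for glucose, had 11.45, 5.01, 10.7, 7.54 and 17.9 FPKM in WT. It had 4.25, 5.47, 4.07 and 8.14 FPKM in IL27ra KO. The library labelled WT replicate 2 lay among the IL27ra KO libraries, and IL27ra KO replicate 4 among the WT libraries. The change was -0.77 (SE 0.30), which missed the threshold (limma, adjusted p = 0.222), also without the library labelled WT replicate 2 (-0.97, adjusted p = 0.0543). Under library quality weights it passed (-1.05, adjusted p = 0.0094), and with the macrophage level as a covariate it was 0.23 (SE 0.65). That covariate, the mean log2 level of the macrophage list, was 1.45 to 3.17 in WT and 4.08 to 5.54 in IL27ra KO. Because it nearly coincides with genotype, fits with it have wide errors here and below and can hardly separate macrophage level from genotype. The lactate carriers Slc16a1 (MCT1) and Slc16a3 (MCT4) averaged 5.95 ± 1.63 and 11.1 ± 4.71 FPKM in WT, against 7.40 ± 1.30 and 14.8 ± 3.12 FPKM in IL27ra KO (SD, n = 5 and n = 4). Their changes were 0.30 and 0.45 (adjusted p = 0.593 and 0.493 by limma). Without the library labelled WT replicate 2, the lowest WT library for both, they were 0.15 and 0.27.

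In upper glycolysis, Hk2, the inducible hexokinase that commits glucose to the pathway, had 12.4, 2.88, 5.81, 3.41 and 5.46 FPKM in WT, against 11.6, 7.76, 7.16 and 3.50 FPKM in IL27ra KO. Replicate 1 was the highest library in each group, and the change between genotypes was 0.34 (SE 0.36, 95% interval -0.43 to 1.10) and 0.16 without the library labelled WT replicate 2. Hk1, the constitutive hexokinase, had 11.9 ± 4.32 FPKM in WT, against 11.5 ± 0.65 FPKM in IL27ra KO (SD, n = 5 and n = 4), above the mean of Hk2 in both groups on this per-length scale. Of the phosphofructokinase subunits, which set the pace of the pathway, Pfkp had 35.9 ± 7.62 and 28.1 ± 2.89 FPKM and Pfkl 20.5 ± 8.35 and 25.01 ± 5.31 FPKM in WT, against IL27ra KO. Pfkm, the muscle subunit, was the lowest of the 3 with 3.10 and 2.505 FPKM. Aldoa, the main aldolase, was at 508 ± 83.8 and 500.3 ± 76.8 FPKM, about the same in both groups (change -0.02, 95% interval -0.51 to 0.47). Gpi1 and Tpi1, which interconvert hexose and triose phosphates, had changes of -0.00 and 0.05. Without the library labelled WT replicate 2 the changes of Hk1, Pfkl, Aldoa, Gpi1 and Tpi1 were -0.11, 0.14, 0.05, 0.02 and 0.16. Aldoc, the brain aldolase, had 10.6 and 8.96 FPKM.

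In lower glycolysis, Gapdh, often used as a reference gene, was the most abundant of the 32 per length. It had 2265, 3064, 2198, 1793 and 2018 FPKM in WT, against 2073, 1991, 1937 and 1460.0 FPKM in IL27ra KO. The library labelled WT replicate 2 was the highest and IL27ra KO replicate 4 the lowest of all 9, and the change was -0.27 (SE 0.26, adjusted p = 0.706 by limma), or -0.16 without the library labelled WT replicate 2. Ldha, the lactate dehydrogenase subunit that favours lactate formation, had 532, 833, 474, 414 and 502 FPKM in WT, against 524, 524, 468 and 432 FPKM in IL27ra KO. Apart from the library labelled WT replicate 2, all values lay between 414 and 532 FPKM. Its change was -0.14 (SE 0.24, 95% interval -0.66 to 0.38), and it turned to 0.02 without that library. Pgk1, which makes the first ATP of the pathway, had 302 ± 60.3 and 303 ± 66.3 FPKM. Pgam1 and Eno1, the enzymes that follow it, had changes of 0.28 and 0.22. Reads of Eno1 can be split with Gm5506, a near-identical copy listed at 138 to 286 FPKM, and these enzymes have many processed pseudogenes, so single values are uncertain.

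Ldhb, the subunit that favours pyruvate formation, was at 31.1, 25.9, 29.2, 35.7 and 26.9 FPKM in WT, against 62.6, 42.2, 43.0 and 29.9 FPKM in IL27ra KO. IL27ra KO replicates 1 to 3 were above every WT library, and replicate 4 was inside the WT range. Of the IL27ra KO libraries, replicate 4 was lowest in both macrophage and melanoma RNA. The change was 0.52 (SE 0.22), which missed the threshold (limma, adjusted p = 0.262). It passed when libraries were scaled by CD8 identity genes (1.20, adjusted p = 0.0458), which moved the median of all genes to 0.60, and with the macrophage covariate it was 0.23 (SE 0.51).

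Of the regulatory kinases, Pfkfb3 and Pfkfb4 make fructose 2,6-bisphosphate, the activator of phosphofructokinase, and Pdk1 keeps pyruvate out of the mitochondria. Pfkfb4 had the largest change of the 32. It had 0.60, 0.17, 0.89 and 0.36 FPKM in WT replicates 1, 3, 4 and 5 and was listed at 0 in the library labelled WT replicate 2. The IL27ra KO libraries had 2.39, 2.53, 2.22 and 0.51 FPKM. Replicates 1 to 3 were above all WT libraries and replicate 4 was within them. The change was 1.01 (SE 0.30, 95% interval 0.37 to 1.65) and did not pass (limma, adjusted p = 0.0816). It passed without IL27ra KO replicate 4 (1.30, adjusted p = 0.0072), and it was 0.51 (SE 0.70) with the macrophage covariate. As a gene near 1 FPKM it moved with the pseudocount, to 2.18 with 0.1 and 0.35 with 5. The summed macrophage level of IL27ra KO replicates 1 to 4 was 1744, 1487, 1961 and 709.9 FPKM. Their summed melanoma level was 1621, 1627, 1440 and 753 FPKM, so replicate 4 was lowest in both. The source of the Pfkfb4 RNA was not tested. Pfkfb3 had 4.83 ± 1.82 and 5.80 ± 1.20 FPKM and Pdk1 7.64 ± 2.26 and 5.56 ± 2.12 FPKM in WT, against IL27ra KO (SD, n = 5 and n = 4). The change of Pfkfb3 was 0.29 with and 0.02 without the library labelled WT replicate 2, which was its lowest. Pdk1 had 2.70 FPKM in IL27ra KO replicate 4, below every other library.

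**Figure D2:**
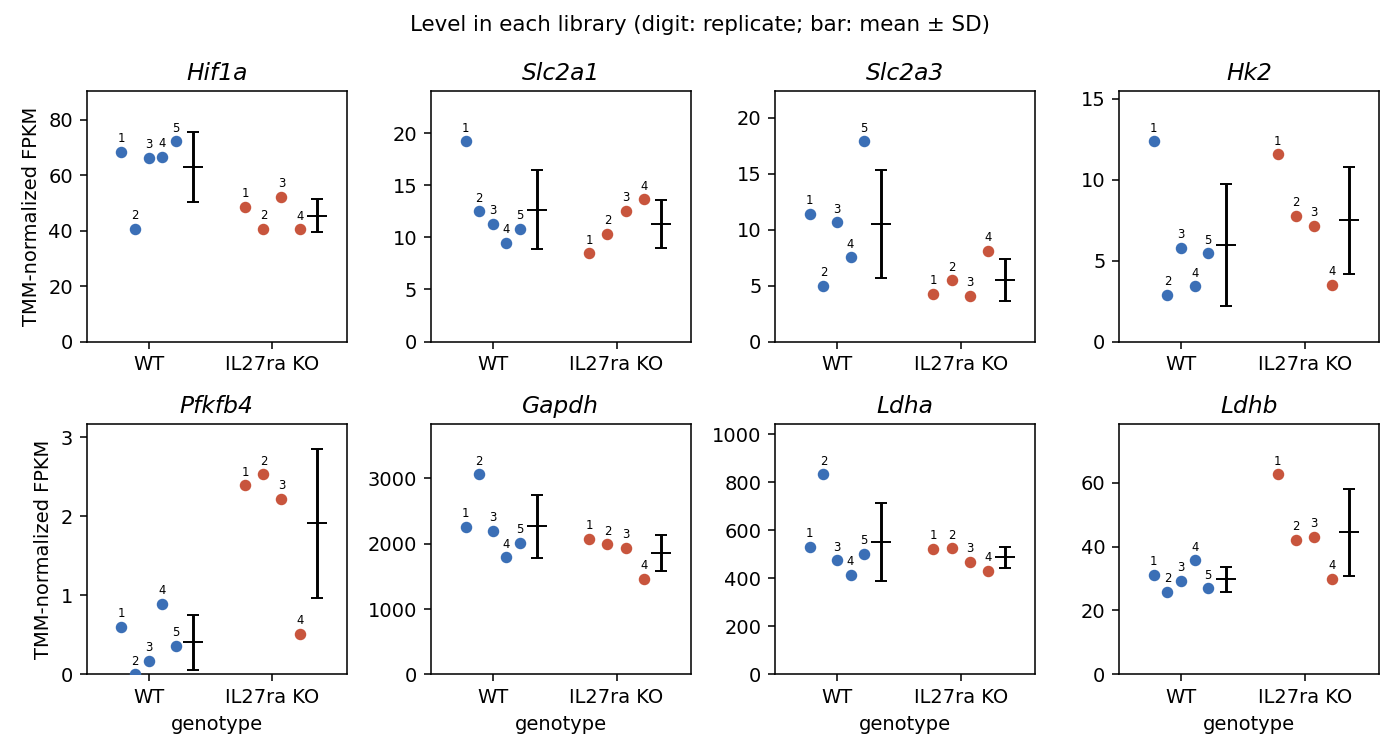
TMM-normalized FPKM of 8 genes in each library, with the replicate number at each point and the mean ± SD beside each group. Hif1a is at 40.6 FPKM in the library labelled WT replicate 2, inside the IL27ra KO range of 40.5 to 52.1 FPKM, and IL27ra KO replicate 4 is inside the WT range for Pfkfb4 and Ldhb.

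Hif1a itself was at 68.5, 40.6, 66.3, 66.7 and 72.1 FPKM in WT, against 48.45, 40.8, 52.1 and 40.5 FPKM in IL27ra KO. The 4 other WT libraries were above every IL27ra KO library, and the library labelled WT replicate 2 was inside the IL27ra KO range, as it was for Il27ra. The change was -0.44 (SE 0.21), which missed the threshold (limma, adjusted p = 0.355). Without the library labelled WT replicate 2 it was -0.59 (SE 0.14) and passed (adjusted p = 0.0343). So it did under library quality weights (-0.53, adjusted p = 0.0429). When libraries were scaled by CD8 identity genes the direction turned (0.24, adjusted p = 0.563). The prolyl hydroxylases that mark the HIF alpha subunit for degradation were low in both groups, with 3.24 ± 0.25 and 2.93 ± 1.02 FPKM for Egln1 and 1.56 ± 0.58 and 1.00 ± 0.39 FPKM for Egln3 (SD, n = 5 and n = 4).

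Several of the other HIF-1 targets had wide ranges within each genotype. Ero1l, an oxidase of the endoplasmic reticulum, had 120.2, 13.6, 32.9, 16.9 and 30.85 FPKM in WT, against 65.6, 30.1, 37.7 and 23.0 FPKM in IL27ra KO. Bnip3, a mitochondrial protein that triggers mitophagy, had 99.0, 44.1, 58.2, 29.1 and 36.2 FPKM in WT, against 75.8, 47.3, 56.9 and 34.4 FPKM in IL27ra KO. Replicate 1 was the highest library of each group for both genes, and the genotype changes were 0.21 (SE 0.50) and 0.08 (SE 0.33). Without the library labelled WT replicate 2 they were -0.07 and 0.05. Vegfa, the growth factor of blood vessels, had 3.07, 0.91, 1.18, 0.75 and 0.86 FPKM in WT, against 3.12, 1.38, 1.88 and 0.75 FPKM in IL27ra KO. Gys1, the muscle glycogen synthase, had 13.7, 2.99, 7.44, 5.09 and 5.01 FPKM in WT, against 9.42, 6.76, 7.91 and 5.63 FPKM in IL27ra KO. These genes again peaked in replicate 1 of each group. Ankrd37, an ankyrin repeat protein induced by hypoxia, had 12.1, 12.7, 3.16, 1.89 and 4.02 FPKM in WT, with the library labelled WT replicate 2 as high as replicate 1, and 1.59 to 7.40 FPKM in IL27ra KO. Bnip3l, a mitophagy receptor related to Bnip3, and P4ha1, a collagen prolyl hydroxylase, had changes of -0.19 and 0.20, or -0.10 and 0.03 without the library labelled WT replicate 2.

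Because several of these targets moved together between libraries, the bases before the start sites are shown for Bnip3, Ero1l and Gys1, which did so. They are also shown for Ldha, a glycolytic target that did not peak in WT replicate 1. Each run is the 250 bases before the most upstream start of the gene in RefSeq on GRCm38.p6, another build than the mm9 named for the expression values. Capitals mark ACGTG or GCGTG, the core that HIF-1 binds, on either strand, and a palindromic CACGTG counts on both.
Bnip3 (chr7:138909507-138909756, minus strand): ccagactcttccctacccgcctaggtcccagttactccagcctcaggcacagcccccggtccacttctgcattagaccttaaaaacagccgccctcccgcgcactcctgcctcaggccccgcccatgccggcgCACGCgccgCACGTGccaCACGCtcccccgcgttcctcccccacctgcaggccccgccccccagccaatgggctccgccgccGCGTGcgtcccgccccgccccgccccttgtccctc
Ero1l (chr14:45318573-45318822, minus strand): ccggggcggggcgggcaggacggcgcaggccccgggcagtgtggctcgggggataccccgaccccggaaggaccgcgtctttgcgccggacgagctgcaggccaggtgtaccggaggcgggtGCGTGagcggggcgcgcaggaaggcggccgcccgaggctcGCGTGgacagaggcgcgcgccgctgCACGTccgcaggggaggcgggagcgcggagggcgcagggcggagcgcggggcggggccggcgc
Gys1 (chr7:45434589-45434838, plus strand): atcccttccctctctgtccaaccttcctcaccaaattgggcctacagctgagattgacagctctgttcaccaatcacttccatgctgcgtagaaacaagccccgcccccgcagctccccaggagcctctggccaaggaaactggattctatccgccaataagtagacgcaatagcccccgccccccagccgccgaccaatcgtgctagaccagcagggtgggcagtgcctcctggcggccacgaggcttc
Ldha (chr7:46845554-46845803, plus strand): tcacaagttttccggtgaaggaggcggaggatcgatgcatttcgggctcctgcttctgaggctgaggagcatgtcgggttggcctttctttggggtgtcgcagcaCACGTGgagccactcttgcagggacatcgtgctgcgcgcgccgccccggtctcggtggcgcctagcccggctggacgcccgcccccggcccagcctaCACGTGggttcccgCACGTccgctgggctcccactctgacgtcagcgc
The windows of Bnip3 and Ldha held 5 matches each, that of Ero1l, listed in RefSeq as Ero1a, held 3, and that of Gys1 held 0. Of the 32 genes, 30 were in the promoter table, and 24 of these windows (80.0%) held at least 1 match, as did 58.3% of the 8372 windows of tested genes and 38.6% of all 27025 windows. At least 2 matches were in 53.3%, 29.2% and 16.8% of these windows. Vegfa also had 0 matches, which says only that these letters are not in this window.

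Across the 9 libraries several of the targets correlated with each other. This was computed on log2(FPKM + 1) for all 28 pairs of Hif1a and the 7 targets, with adjustment over the 28, and was chosen after the values were seen. Of the 21 pairs of targets 20 had a positive Pearson r, with a median of 0.63, and 7 pairs passed (exact permutation tests, adjusted p under 0.05). Ero1l and Gys1 had r = 0.945 (rho = 0.90, exact permutation adjusted p = 0.0060 and 0.0284) and r = 0.858 without WT replicate 1 and the library labelled WT replicate 2, the 2 libraries farthest from the median of Ero1l. Bnip3 and Vegfa had r = 0.929 (rho = 0.929, exact permutation adjusted p = 0.0080 and 0.0247), and r = 0.904 without WT replicates 1 and 4. Bnip3 and Ero1l had r = 0.874 (rho = 0.85, exact permutation adjusted p = 0.0148 and 0.0425), and r = 0.702 without WT replicates 1 and 4. Hif1a with the 7 targets had r from -0.07 to 0.34 with a median of 0.12, and 0 of these 7 pairs passed (exact permutation tests, 0 at an unadjusted p under 0.05). Centring on the genotype means left the 3 target pairs at 0.948, 0.945 and 0.873 and moved several pairs of Hif1a, to 0.72 with P4ha1, 0.65 with Gys1, 0.57 with Ero1l, 0.37 with Vegfa, 0.24 with Bnip3, -0.22 with Ankrd37 and -0.40 with Bnip3l. The centred values and the difference between both kinds of pair were not tested, and each genotype alone has too few libraries for a correlation. The values of a library share its scaling and its makeup of cells. As a description, the median r over all pairs was 0.32 for the 496 pairs of the 32 genes, 0.55 for lower glycolysis and 0.00 for all pairs of tested genes.

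**Figure D3:**
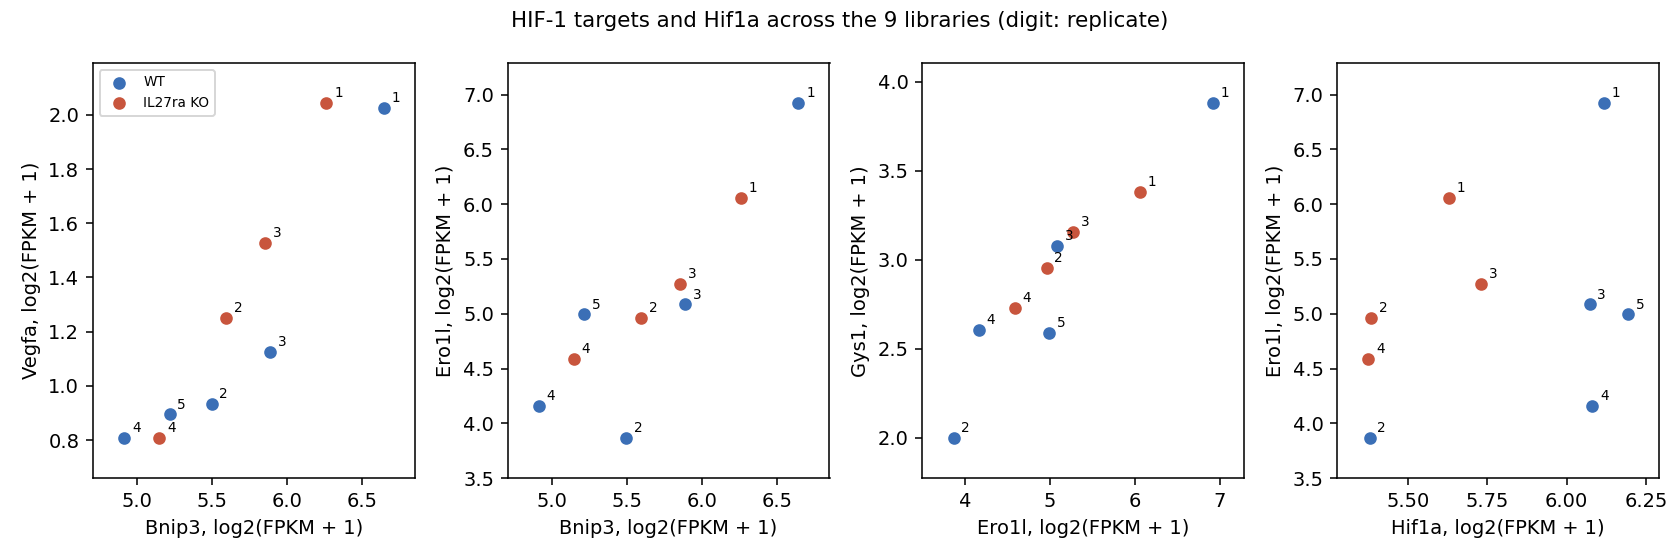
Levels of HIF-1 targets and Hif1a in the 9 libraries, as log2(FPKM + 1) on both axes, with the replicate number at each point and the genotype by colour. Bnip3 with Vegfa or Ero1l, and Ero1l with Gys1, lie along a line with replicate 1 of each genotype at the top (r = 0.929, 0.874 and 0.945), and Hif1a with Ero1l scatters more (r = 0.343, or 0.571 after centring on the genotype means).

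**Figure D4:**
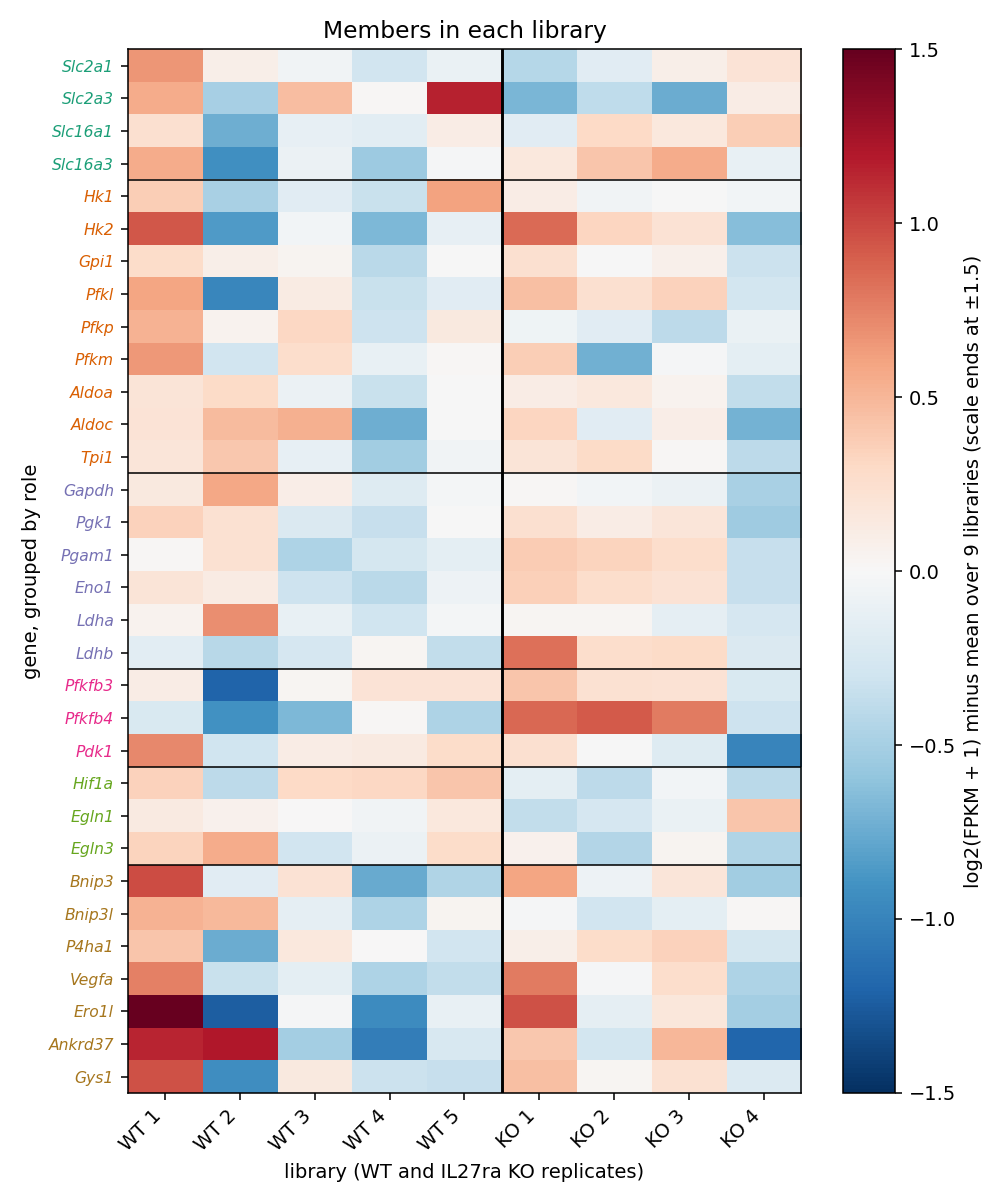
Deviation of each gene in each library from its mean over the 9 libraries, in log2(FPKM + 1), with genes grouped and coloured by role and a line between WT and IL27ra KO. WT replicate 1 is above the mean for 30 of the 32 genes, IL27ra KO replicate 1 for 25, and IL27ra KO replicate 4 for 5.

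The libraries of a group differed in level over most of the 32 genes. WT replicate 1 was the highest WT library for 17 of the 32 (53.1%, against 17.0% of all tested genes), and IL27ra KO replicate 1 the highest IL27ra KO library for 19 (59.4%, against 25.7%). Both held for 12 genes (37.5%, against 5.01% of all tested genes), namely Hk2, Gpi1, Pfkl, Pfkp, Pfkm, Pgk1, Eno1, Pdk1, Bnip3, Vegfa, Ero1l and Gys1. Over all tested genes, the deviations of these 2 libraries from their group means had a correlation of 0.003, and the labels do not say that the number 1 marks a shared animal or batch. IL27ra KO replicate 4 was the lowest IL27ra KO library for 24 (75.0%, against 34.6%). WT replicate 4 and the library labelled WT replicate 2 were each the lowest WT library for 15. The latter was uneven, being also the highest WT library for 7, among them Gapdh, Ldha, Aldoa and Tpi1, and the lowest for Hk2, Pfkl, Pfkfb3, Slc16a3 and P4ha1. The macrophage and melanoma sums of WT replicate 1, 110.5 and 1222 FPKM, lay within the range of the other WT libraries. Its mean log2 macrophage level, 1.45, was the lowest of all 9 libraries, against 1.52 to 3.17 in the other WT libraries. Its sum of 8 dendritic cell genes, 129 FPKM, was the highest in WT (65.0 to 103 FPKM in the others), as was that of the 2 genes of CD4 and regulatory T cells, 5.81 FPKM (0 to 4.70 FPKM in the others). Each sum came almost wholly from 1 gene, Ccr7 with 123.97 FPKM and Foxp3 with 5.53 FPKM. Cd4 was at 0.28 FPKM in WT replicate 1, below WT replicates 3 and 4 (0.45 and 0.34 FPKM). In WT the melanoma sum was highest in replicate 4, a library low in the 32 genes. IL27ra KO replicate 4 had the lowest melanoma and macrophage sums of its group, 753 and 709.9 FPKM. The part of these cell types in the pattern was not tested.

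Other genes of these pathways were read from 7 lists. Of 10 tested glycolysis genes outside the 32, Hk3 rose and 9 did not pass. Hk3, a hexokinase of myeloid cells, had 0.25 to 0.59 FPKM in WT, against 2.15, 1.82, 2.58 and 3.78 FPKM in IL27ra KO (change 1.37, SE 0.22, limma, adjusted p = 0.0029). It passed without each library in turn. As a gene near 1 FPKM its change moved with the pseudocount, to 2.52 with 0.1 and 0.49 with 5. It passed with both (limma, adjusted p = 0.0089 and 0.0039). With the macrophage covariate its change was 1.78 with a wider SE of 0.52, and it did not pass (limma, adjusted p = 0.22). Its highest value, 3.78 FPKM, was in IL27ra KO replicate 4, the IL27ra KO library lowest in macrophage RNA. Pkm, the pyruvate kinase that ends glycolysis, was at 319 ± 64.3 and 355 ± 55.8 FPKM in WT, against IL27ra KO (SD, n = 5 and n = 4). In the other lists 0 genes passed, of 8 for the pentose phosphate pathway, 12 for pyruvate entry into mitochondria, 10 for glycogen and gluconeogenesis, 5 for the HIF system, 22 for other hypoxia response genes and 14 for upstream regulators such as Myc and Mtor. At an unadjusted p under 0.05 these lists held 1, 2, 3, 1, 2 and 1 genes (limma). Epas1, which encodes HIF-2 alpha, had 5.77 ± 2.66 FPKM in WT, against 2.12 ± 0.88 FPKM in IL27ra KO (SD, n = 5 and n = 4), a change of -1.07 that did not pass (limma, adjusted p = 0.0549). Among the fits without 1 library, it passed without WT replicate 3 or IL27ra KO replicate 4 (adjusted p = 0.0191 and 0.0284), and it passed with quantile normalization and library quality weights (adjusted p = 0.0419 and 0.0062). Bhlhe40, a transcription factor induced by hypoxia and by T cell activation, had 129.97 ± 31.9 and 73.8 ± 16.8 FPKM, a change of -0.80 (adjusted p = 0.0823), and among the fits without 1 library it passed without WT replicate 4 or IL27ra KO replicate 4 (adjusted p = 0.0414 and 0.0375). Quantile normalization and library quality weights also made it pass (adjusted p = 0.0313 and 0.0062). Other scalings shrank both changes. When libraries were scaled by CD8 identity genes, Epas1 and Bhlhe40 changed by -0.55 and -0.11 (limma, adjusted p = 0.180 and 0.743). With the same total FPKM they changed by -0.83 and -0.47 (limma, adjusted p = 0.157 and 0.357). The 22 other hypoxia response genes showed the same libraries on top, with 10 of 22 (45.5%) highest in replicate 1 of both groups.

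**Figure D5:**
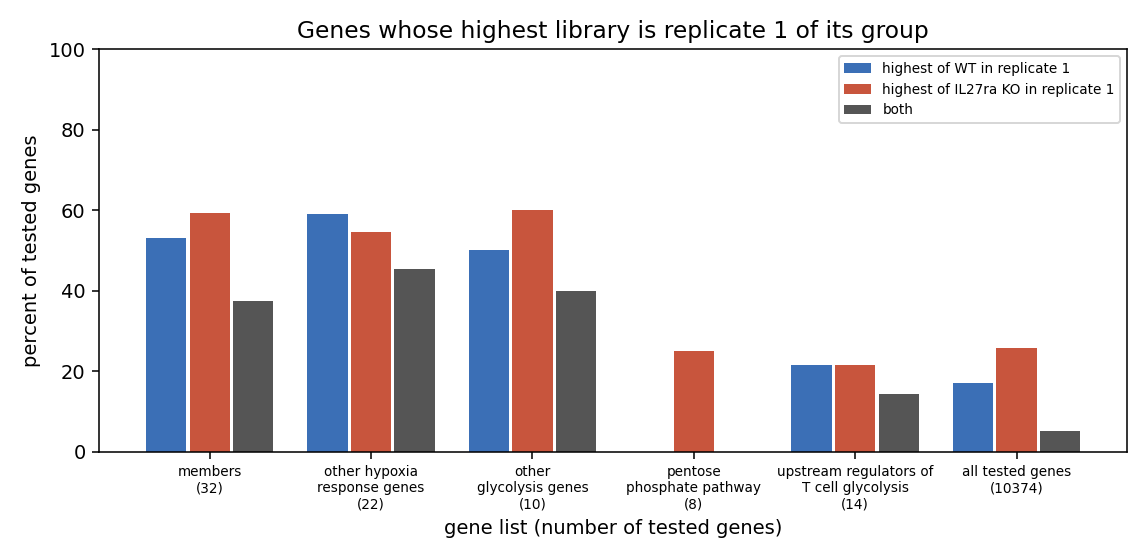
Share of the tested genes of each list whose highest WT library is WT replicate 1 (blue), whose highest IL27ra KO library is IL27ra KO replicate 1 (red), or both (grey), with the number of genes under each list (members are the 32 genes). Both hold for 37.5% of the 32 genes and 45.5% of other hypoxia genes, against 5.01% of all tested genes.

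Ratios within pairs of related genes, taken as log2((A + 1)/(B + 1)) in each library, depend on its scaling only through the pseudocount. Of 9 ratios compared with two-sided exact permutation tests, 0 passed after adjustment over the 9, and 3 had an unadjusted p under 0.05. The log2 ratio of Pfkp to Pfkl was 0.85 ± 0.44 in WT (SD, n = 5) and 0.18 ± 0.39 in IL27ra KO (SD, n = 4), with an exact permutation p = 0.0476. That of Ldhb to Ldha was -4.13 ± 0.53 and -3.47 ± 0.32 (exact permutation p = 0.0476), and that of Pfkfb4 to Pfkfb3 was -2.01 ± 0.41 and -1.28 ± 0.34 (exact permutation p = 0.0317). The adjusted p of all 3 was 0.143, and the groups overlapped in each. Without the library labelled WT replicate 2, which was the extreme WT library for Pfkp to Pfkl and for Ldhb to Ldha, the differences went from -0.66 to -0.48, from 0.66 to 0.46 and from 0.73 to 0.88 (adjusted exact permutation p = 0.193 for each). The ratio of Hk2 to Hk1 was -0.97 ± 0.50 and -0.64 ± 0.56 (exact permutation p = 0.397), and that of Slc2a3 to Slc2a1 was -0.31 ± 0.69 and -0.94 ± 0.33 (exact permutation p = 0.127).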

How the data were processed

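RNA of CD8+ T cells from tumours was sequenced after an adapted SMART-Seq 2 protocol, per the labels' protocols. The deposited values are gene-level FPKM, which the authors made with RSEM and TMM normalization, per the labels. The submitters' processing notes name TopHat, RSEM, DESeq and the build mm9, and their versions and the strand setting were not given in the sources used here. The protocol counts no unique molecules, and a changed mix of cells moves the values of all genes of a library. Rn45s took 23.9% to 53.8% of the summed FPKM. Effective depth was estimated from the spacing of low TMM-normalized FPKM in 3220 single-transcript genes of GENCODE M21. Of these values 59.7% to 65.6% lay within 0.1 of a whole multiple, against 20% if evenly spread.

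From these, log2(FPKM + 1) was computed, genes averaging 1 FPKM or more across the 9 libraries were kept (10374, all 32 members among them), and limma 3.58.1 in R 4.3.3 compared IL27ra KO with WT (lmFit, eBayes with trend, Benjamini-Hochberg, threshold 0.05). Two-sided exact permutation tests were run in Python 3.11.15, and their smallest p for 5 against 4 libraries is 0.0159. Promoters came from RefSeq.

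The members and lists were chosen with earlier results of these data known. Library values were given for Hif1a, Slc2a1, Slc2a3, Hk2, Gapdh and Ldha by rule, and for members past the threshold or without overlap, of which there were 0. Those of Ldhb, Pfkfb4, Ero1l, Bnip3, Vegfa, Gys1 and Ankrd37, and the pathway genes other than Hk3, were chosen after their values were seen. The alternatives were pseudocounts, filters, scalings, robust and weighted fits, a replicate block, covariates and each library left out.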

Additional observations from a re-analysis of the deposited data

Results flagged for a closer look

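Within a group, 6 values of the 32 genes lay far from the other libraries, by the gap to the nearest library over the range of the group. In the library labelled WT replicate 2, Ldha was at 832.75 FPKM (next WT library 531.8), Pfkfb3 at 1.62 FPKM (next 5.14) and Hif1a at 40.61 FPKM (next 66.29). In WT replicate 1, Vegfa was at 3.07 FPKM (next 1.18) and Ero1l at 120.18 FPKM (next 32.94). In IL27ra KO replicate 4, Pfkfb4 was at 0.51 FPKM (next 2.22). The 82 groups examined were those of the 32 genes, of Il27ra and of pathway genes named here. Of these, 6 (7.32%) were singled out, all from the 32 genes, and chance gives about 5%.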

How the results depend on the processing

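Of 23 alternatives, 18 called none of the 32 genes, of which the filter at 5 FPKM tested 27, and 5 called 1 to 3. The count of genes called among all tested was 440. It went to 219 with the filter at 5 FPKM, which tested 5722 genes, so that the share was 3.83%, against 4.24% in the main fit. The count was 1089 when libraries were scaled by CD8 identity genes and 974 with library quality weights. It was 7 with the macrophage covariate, whose level did not overlap between genotypes, so that this fit can hardly separate them. When 1 library was left out it was 226 to 632 (lowest without IL27ra KO replicate 3, highest without IL27ra KO replicate 4). Of the 32, 1 was higher on rescaling to the same total (Pfkfb4), 2 with that CD8 scaling (Ldhb and Pfkfb4) and 1 with weights (Pfkfb4), and weights gave 2 lower (Slc2a3 and Hif1a). The same total, the CD8 scaling and the weights called 5.69%, 10.5% and 9.39% of all tested genes. Leaving out 1 library gave 0 to 1 higher and 0 to 1 lower, where 2.18% to 6.09% of all tested genes were called. The median change of the 32 went from 0.00 to 0.33 with the same total and 0.69 with the CD8 scaling, where the median of all genes went to 0.29 and 0.60, and ran from -0.09 to 0.14 when 1 library was left out. Calls split into 325 higher and 115 lower, 525 and 65 with the same total, and 1038 and 51 with the CD8 scaling. With the replicate number as a block 273 genes and 0 of the 32 were called. Counting changes that did not pass, 7 of the 32 kept their direction in every alternative that tested them (Slc16a1, Slc16a3, Hk2, Pfkl, Ldhb, Pfkfb4 and Vegfa), and 25 turned in at least 1, among them 15 with the CD8 scaling and 10 with the same total. The labels do not say that the numbers pair the libraries. Over all tested genes, same-numbered deviations had correlations of 0.00, -0.01, -0.07 and -0.15, and 0 of 4 WT libraries correlated best with their own number. This check takes all genes together, so it cannot exclude a pairing that shows in a smaller set of genes. At an effective depth of 1730000 to 4090000 fragments, genes near 1 FPKM such as Hk3, Pfkfb4, Egln3 and Vegfa rest on few fragments.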

Other observations

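Of the 81 tested genes in the 7 pathway lists, 4 had groups that did not overlap (4.94%, against 6.73% of all tested genes), Hk3 and 3 that did not pass. G6pdx, which opens the pentose phosphate pathway, had 9.46 to 12.7 FPKM in WT, against 12.9 to 19.0 FPKM in IL27ra KO (change 0.46, SE 0.18, limma, adjusted p = 0.234). It passed with library quality weights and when libraries were scaled by CD8 identity genes (adjusted p = 0.0451 and 0.0434). Pdhb, a subunit of pyruvate dehydrogenase, had 34.1 to 49.2 FPKM in WT, against 25.2 to 33.7 FPKM in IL27ra KO (change -0.48, SE 0.18, adjusted p = 0.212). Slc1a5, a glutamine carrier, had 35.0 to 43.0 FPKM in WT, against 17.0 to 33.3 FPKM in IL27ra KO (change -0.58, SE 0.21, adjusted p = 0.172), and it passed with library quality weights (adjusted p = 0.0383). The CD8 scaling turned the direction of Pdhb (0.20) and Slc1a5 (0.09). With the macrophage level as a covariate, G6pdx, Pdhb and Slc1a5 had changes of 0.18 (SE 0.42), -0.38 (SE 0.43) and -0.04 (SE 0.45).

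Pygl, the liver glycogen phosphorylase, had 1.40 to 1.82 FPKM in WT and 5.51, 2.39, 6.27 and 1.63 FPKM in IL27ra KO replicates 1 to 4. The summed macrophage levels of these IL27ra KO libraries were 1744, 1487, 1961 and 709.9 FPKM, and their melanoma levels 1621, 1627, 1440 and 753 FPKM. The change of Pygl, 0.77 (SE 0.28), did not pass (limma, adjusted p = 0.187). It passed without IL27ra KO replicate 4 (1.03, adjusted p = 0.0327) and with the CD8 scaling (1.30, adjusted p = 0.0392). With the macrophage covariate it was -0.01 (SE 0.64), and with the melanoma level as a covariate 0.59 (SE 0.28). The pentose phosphate genes had their highest sum, 236 FPKM, in the library labelled WT replicate 2, which was the highest WT library for 5 of the 8.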
